A study of Mus musculus with 10 samples.

Results

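The antioxidant and NRF2 target genes Hmox1, Nqo1, Gclm, Gclc, Srxn1, Txnrd1, Slc7a11, Sod2, Prdx1 and Gsr were followed through the response of mouse bone marrow–derived macrophages (BMDMs) to TLR7 ligands. These 10 genes were taken by symbol from the 55573 genes of the deposited table, and all 10 were among the 11978 genes that passed the filter on low values, which asked for 1 CPM (the read count scaled to library size) or more in at least 2 libraries. BMDMs were grown from the marrow of WT female C57BL/6 mice in DMEM with 10% FBS and 50 ng/mL MCSF. Every group was treated for 4 hours and had 2 libraries, which the labels number as biological replicates without saying whether they came from separate mice, so p-values measure the spread between these libraries. The groups received vehicle, 5 μg polyU (a uridine-only ssRNA) carried by the lipid DOTAP, 1 μM of the purine nucleoside phosphorylase inhibitor ulodesine with 5 μM guanosine and 5 μM deoxyguanosine (PNPi+dG/rG), this mixture together with polyU (PNPi+dG/rG+polyU, called the combination), or R848, a small-molecule TLR7 ligand, at 1 ng/mL. DOTAP is named only for the groups with polyU, so effects of the ssRNA and of its carrier cannot be told apart, and neither can those of the inhibitor and of the nucleosides given with it.

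NRF2, encoded by Nfe2l2, is a transcription factor that is kept low by KEAP1, which hands it to a ubiquitin ligase. When the cysteines of KEAP1 are modified by oxidants or electrophiles, NRF2 builds up, pairs with a small MAF protein and binds antioxidant response elements (AREs) in genes that make glutathione, reduce thioredoxin and peroxiredoxins, break down haem and detoxify quinones. In macrophages, superoxide comes from the NADPH oxidase and nitric oxide from inducible NO synthase, and some of these genes also answer to other factors, as Sod2 does to NF-κB and Slc7a11 to ATF4.

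The sequences before the starts of 4 members are shown because their levels followed different patterns across the treatments. Of the 10 members, 7 had promoter windows in the RefSeq table for GRCm38.p6, and no windows for Hmox1, Gclc and Gsr were used here. Each window of 300 bases, from 250 before to 50 after an annotated start, was searched on both strands for the ARE core TGACNNNGC, the AP-1 site TGANTCA, the κB consensus and the ATF4 site core TGATGNAA. The stretches below are the 250 bases before the start, 5′ to 3′ on the strand of the gene, and capitals mark the matches.
Slc7a11 (chr3:50443614-50443863, minus strand): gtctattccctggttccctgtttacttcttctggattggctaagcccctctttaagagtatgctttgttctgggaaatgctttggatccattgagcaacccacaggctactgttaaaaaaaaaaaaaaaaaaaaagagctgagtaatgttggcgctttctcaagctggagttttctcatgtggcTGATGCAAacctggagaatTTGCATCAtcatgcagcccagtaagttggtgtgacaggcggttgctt
Sod2 (chr17:13007589-13007838, plus strand): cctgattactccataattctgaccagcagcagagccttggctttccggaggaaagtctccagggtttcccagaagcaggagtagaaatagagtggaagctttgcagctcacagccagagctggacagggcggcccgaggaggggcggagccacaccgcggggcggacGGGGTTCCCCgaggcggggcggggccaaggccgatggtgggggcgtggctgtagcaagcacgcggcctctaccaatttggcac
Srxn1 (chr2:152105274-152105523, plus strand): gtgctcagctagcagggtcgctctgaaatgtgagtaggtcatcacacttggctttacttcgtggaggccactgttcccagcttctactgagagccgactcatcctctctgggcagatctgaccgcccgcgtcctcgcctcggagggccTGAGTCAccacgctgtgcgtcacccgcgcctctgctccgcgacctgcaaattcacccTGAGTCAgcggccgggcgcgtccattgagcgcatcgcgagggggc
Prdx1 (chr4:116685349-116685598, plus strand): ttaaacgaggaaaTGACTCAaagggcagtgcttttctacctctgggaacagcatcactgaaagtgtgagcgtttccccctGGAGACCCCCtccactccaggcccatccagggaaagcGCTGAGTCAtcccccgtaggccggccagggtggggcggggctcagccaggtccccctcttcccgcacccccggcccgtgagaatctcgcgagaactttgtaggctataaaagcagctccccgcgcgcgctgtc

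The Slc7a11 window held the ATF4 core at -66 and again, on the other strand, at -47, where positions give the first base counted from the start. In Sod2 the match was GGGGTTCCCC at -83, which met the κB consensus on both strands. Srxn1 had AP-1 sites at -102 and -45, and an ARE core lay beyond the printed stretch, 29 bases into the transcript. Prdx1 held an AP-1 site at -237, a κB match at -170 and an ARE core at -133 that overlaps a further AP-1 site at -131. ARE cores were also found for Gclm at -134 and in 1 of the 3 windows of Txnrd1 at -92, while the Nqo1 window had none of these motifs. The ARE core was thus in windows of 4 of the 7 members, and in windows of 14.0% of all 27025 genes in the table, where the AP-1, κB and ATF4 motifs were in windows of 8.97%, 9.55% and 4.51% of genes. Matching letters are a description and not a bound site.

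The libraries held 14128123 to 38392592 reads on genes, the fewest in the combination group and the most in the PNPi+dG/rG group, and 3 reads corresponded to between 0.0781 and 0.212 CPM. The 15 macrophage markers checked were all tested and summed to between 20671 and 23615 CPM in every library, with Lyz2, the lysozyme gene of myeloid cells, the most abundant. Gm42418, a gene model that collects ribosomal RNA reads, took 0.869% to 2.61% of reads in 9 libraries and 3.71% in R848 replicate 1. Read against gene length (the merged exons of GENCODE M21), the most abundant members in vehicle were Hmox1 at 316 CPM per kb ± 15.0 (SD, n = 2) and Prdx1 at 169 ± 0.438, and the least abundant were Nqo1 at 3.45 ± 0.841 and Slc7a11 at 1.38 ± 0.00162. With R848 the level per kb of Slc7a11 was 119 ± 3.69, close to Gsr at 144 ± 1.65 and Sod2 at 167 ± 3.30, and Hmox1 still led at 543 ± 5.46.

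**Figure D1:**
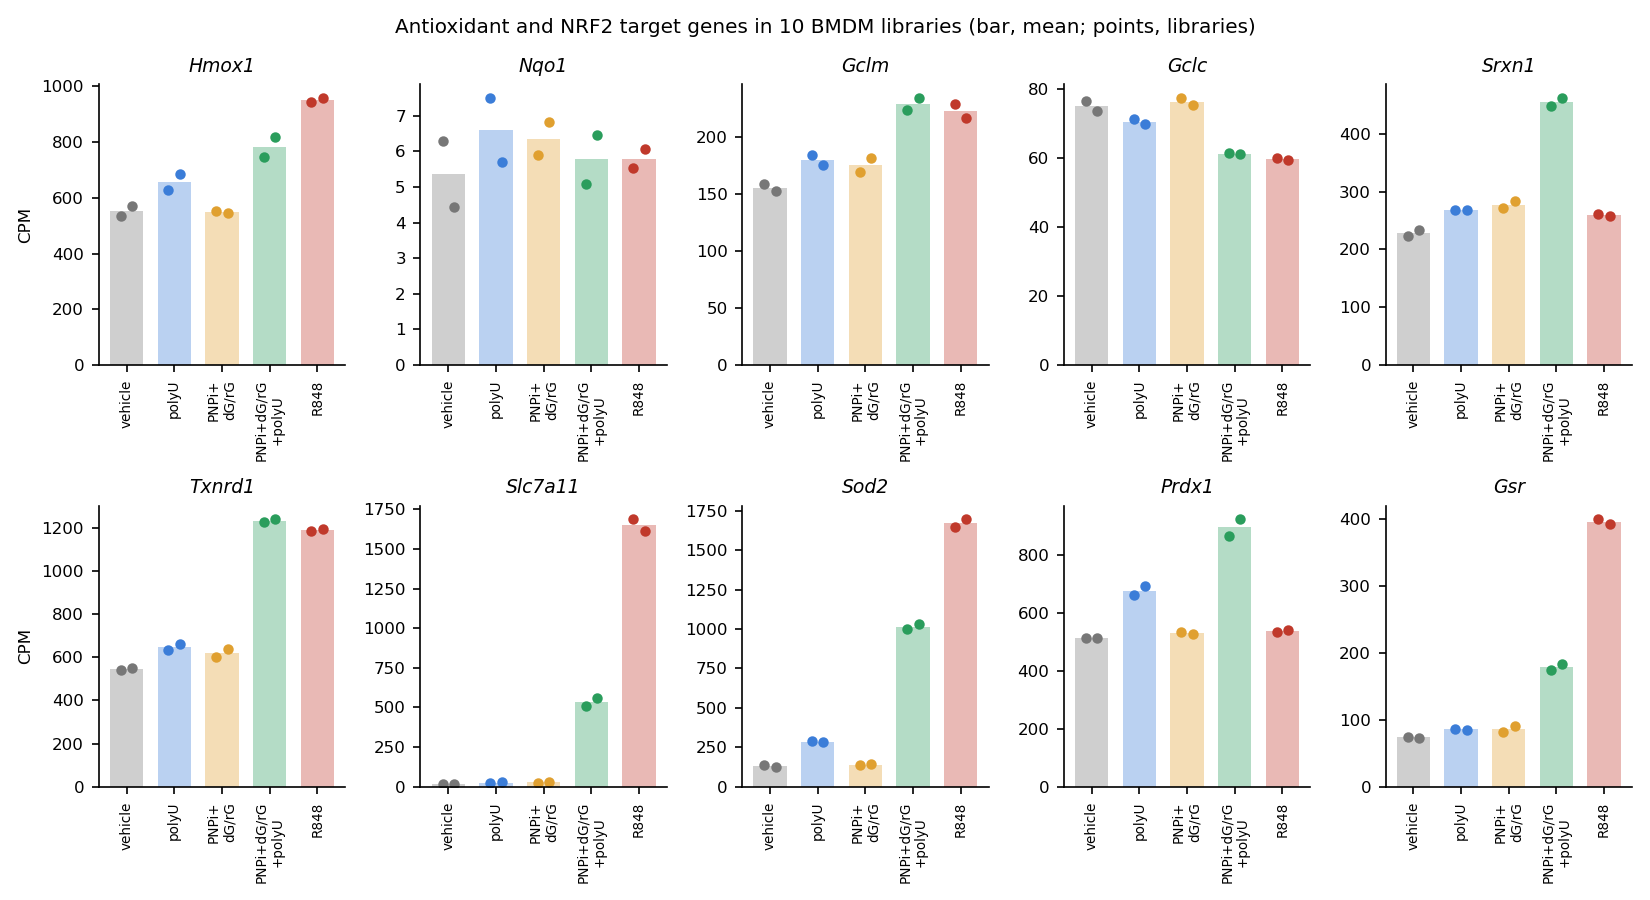
Levels of the 10 members in CPM (y axis, from 0, a separate scale for each gene) in the 5 groups, with points for the 2 libraries of each group and bars for their mean. Slc7a11, Sod2 and Gsr stepped up from vehicle to the combination and again to R848, Srxn1 and Prdx1 were highest with the combination, and Nqo1 stayed between 4.44 and 7.50 CPM in all 10 libraries.

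Against vehicle, more members were called with the combination and with R848 than with either component alone. A gene was called at an adjusted p under 0.05 and at least 2-fold, by limma on log2 CPM over all 11978 genes. With the combination, Slc7a11, Sod2, Gsr and Txnrd1 were called higher, 4 of 10 members, where 8.12% of all genes tested were called higher, and no member was called lower, where the background was 14.3%. R848 raised the same 4 genes past 2-fold, against 8.89% of all genes called higher and 30.3% called lower. PolyU alone called Sod2 and no other member, against 3.21% of all genes higher and 0.776% lower. PNPi+dG/rG alone called no member, and 0.0668% of all genes were called higher and 0.00835% lower. The median log2 change of the 10 members was 0.25 with polyU, 0.18 with PNPi+dG/rG, 0.90 with the combination and 0.65 with R848, beside medians over all genes tested of 0.02, 0.02, -0.22 and -0.50. Counting changes of any size that passed an adjusted p under 0.05, 8 members were higher and 1 lower with the combination, beside 22.2% and 46.7% of all genes tested, and 7 were higher and 1 lower with R848, beside 19.2% and 62.9%. All 4 comparisons use the same 2 vehicle libraries.

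CPM is a share of each library, so a general fall in transcripts and a larger share taken by some of them cannot be told apart, and each value below is on the deposited scale unless centring is named. When the median tested gene was set equal in every library (centred libraries), 1192 genes were called higher and 1245 lower with the combination, in place of 973 and 1712, and 1792 and 2107 with R848, in place of 1065 and 3633. On that scale 6 members were called higher with the combination, Srxn1 and Prdx1 being added, and 6 with R848, Hmox1 and Gclm being added, and again none lower.

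**Figure D2:**
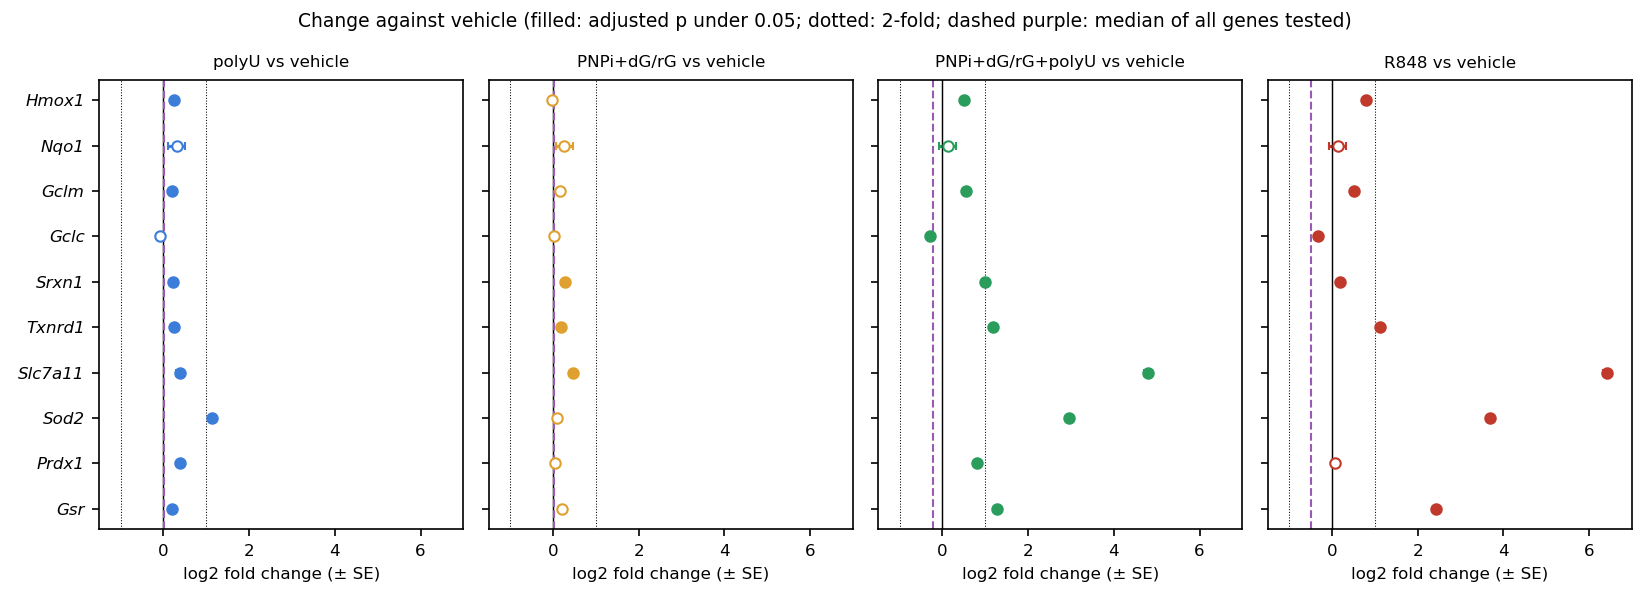
Log2 fold change against vehicle (x axis, ± SE from limma, 2 libraries per group) for the 10 members in each treatment, with filled points at an adjusted p under 0.05, dotted lines at 2-fold and a dashed line at the median of all genes tested. Slc7a11 and Sod2 lie far to the right with the combination (4.79 and 2.96) and R848 (6.42 and 3.68), and Gclc lies left of 0 in both.

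Among the genes of glutathione supply, the transcripts of Slc7a11 and Gsr rose more than 2-fold with the combination and with R848, while Gclm rose by less and Gclc fell on the deposited scale. Slc7a11 (ENSMUSG00000027737, GRCm38 chr3:49892526-50443614), whose protein xCT brings in the cystine that limits glutathione synthesis, had 19.2 and 19.2 CPM in vehicle, 23.8 and 26.3 with polyU, 24.0 and 29.8 with PNPi+dG/rG, 510 and 558 with the combination, and 1686 and 1614 with R848. The last 2 groups stood apart from each other and from all the rest. The log2 change was 4.79 ± 0.09 (SE, adjusted p = 1.52e-13) with the combination, or 27.7-fold, and 6.42 ± 0.09 (adjusted p = 4.29e-15) with R848, or 85.8-fold. PolyU alone raised it by 0.38 ± 0.09 (adjusted p = 0.00493), a change below 2-fold that did not pass without polyU replicate 2 (0.31 ± 0.11). With PNPi+dG/rG alone the change was 0.48 ± 0.09 (adjusted p = 0.0308), which did not pass when either vehicle library, either library of the combination or PNPi+dG/rG replicate 2 (0.32 ± 0.08) was left out. Slc3a2, which encodes the heavy chain that partners xCT, had 498 and 510 CPM in vehicle, 574 and 593 with the combination and 516 and 528 with R848. Its log2 change was 0.21 ± 0.04 (adjusted p = 0.000184) with the combination, or 0.42 ± 0.04 centred, and 0.05 ± 0.04 (adjusted p = 0.236) with R848, which became 0.65 ± 0.04 and passed when libraries were centred.

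Gsr (ENSMUSG00000031584, chr8:33652523-33698163), the reductase that returns oxidised glutathione to its reduced form, had 74.9 and 73.3 CPM in vehicle, 86.7 and 84.4 with polyU, 82.0 and 90.7 with PNPi+dG/rG, 175 and 183 with the combination, and 399 and 393 with R848. Its groups stood apart from each other, except for polyU and PNPi+dG/rG, which overlapped just above vehicle. The gene rose 2.42-fold with the combination (log2 change 1.27 ± 0.05, adjusted p = 5.21e-12) and 5.35-fold with R848 (2.42 ± 0.05, adjusted p = 9.23e-16). Of the smaller changes, that with polyU passed (0.21 ± 0.05, adjusted p = 0.00567) and that with PNPi+dG/rG did not (0.22 ± 0.05, adjusted p = 0.0839).

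Glutamate-cysteine ligase, the first and rate-limiting enzyme of glutathione synthesis, is made of a catalytic subunit, Gclc, and a modifier, Gclm, and these moved in opposite directions on the deposited scale. Gclm (ENSMUSG00000028124, chr3:122245557-122270732) had 159 and 153 CPM in vehicle, 185 and 175 with polyU, 169 and 182 with PNPi+dG/rG, 224 and 234 with the combination, and 229 and 217 with R848. The last 2 groups overlapped each other and lay above all other libraries, with log2 changes of 0.56 ± 0.05 (adjusted p = 9.16e-08) and 0.52 ± 0.05 (adjusted p = 1.27e-07). Gclc (ENSMUSG00000032350, chr9:77754535-77794485) had 76.6 and 73.7 CPM in vehicle, 71.4 and 69.8 with polyU, 77.5 and 75.4 with PNPi+dG/rG, 61.5 and 61.2 with the combination, and 60.2 and 59.6 with R848. It was the only member that fell, by 0.29 ± 0.05 on the log2 scale with the combination (adjusted p = 0.000149) and by 0.33 ± 0.05 with R848 (adjusted p = 3.32e-05). This fall depended on the scale, since with centred libraries the change was -0.08 ± 0.05 and did not pass with the combination, and it turned to a rise of 0.27 ± 0.05 with R848.

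Of the 3 members that act on thioredoxin and peroxiredoxins, Txnrd1 rose past 2-fold with both the combination and R848, while Srxn1 and Prdx1 were higher with the combination than with R848. Txnrd1 (ENSMUSG00000020250, chr10:82833951-82897712), the cytosolic reductase that keeps thioredoxin reduced, had 540 and 549 CPM in vehicle, 633 and 664 with polyU, 602 and 640 with PNPi+dG/rG, 1228 and 1241 with the combination, and 1188 and 1196 with R848. It rose in both of the last 2 groups, by 1.18 ± 0.04 on the log2 scale (adjusted p = 3.29e-13) and by 1.13 ± 0.04 (adjusted p = 2.68e-13). With PNPi+dG/rG alone the change was 0.19 ± 0.04 (adjusted p = 0.0367), and it did not pass with either vehicle library, either library of the combination or PNPi+dG/rG replicate 2 (0.14 ± 0.05) left out. Eid3, which overlaps Txnrd1 on the same strand, was at 0.955 to 4.73 CPM.

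Srxn1 (ENSMUSG00000032802, chr2:152105516-152111376), sulfiredoxin, which repairs peroxiredoxins that have been oxidised too far, had 224 and 234 CPM in vehicle, 268 and 268 with polyU, 272 and 284 with PNPi+dG/rG, 448 and 462 with the combination, and 261 and 258 with R848. On the deposited scale only the combination libraries stood well above the rest. They were 1.99-fold over vehicle (log2 change 0.99 ± 0.04, adjusted p = 6.08e-12), just short of the 2-fold threshold. With R848 the change was 0.18 ± 0.04 (adjusted p = 0.000863). With PNPi+dG/rG it was 0.28 ± 0.04 (adjusted p = 0.00627), which did not pass without PNPi+dG/rG replicate 2 (0.25 ± 0.05). Centring moved the R848 change to 0.78 ± 0.04, which passed, and that with the combination to 1.20 ± 0.04, a call. Srxn1 carried its ARE core and AP-1 sites in the sequence printed above or just past it.

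Prdx1 (ENSMUSG00000028691, chr4:116685544-116700822), a peroxiredoxin that removes hydrogen peroxide and is a substrate of sulfiredoxin, was also highest with the combination. It had 512 and 514 CPM in vehicle, 661 and 691 with polyU, 535 and 526 with PNPi+dG/rG, 867 and 922 with the combination, and 535 and 541 with R848. PolyU raised it by 0.40 ± 0.04 (adjusted p = 1.35e-06) and the combination by 0.80 ± 0.04 (adjusted p = 5.07e-11), on the log2 scale. The R848 and PNPi+dG/rG libraries overlapped, and the change with R848 was 0.07 ± 0.04 (adjusted p = 0.125), which became 0.66 ± 0.04 and passed with centred libraries.

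Sod2 (ENSMUSG00000006818, chr17:13006846-13040063), the mitochondrial manganese superoxide dismutase, was the one member that polyU alone moved past 2-fold. It had 134 and 126 CPM in vehicle, 292 and 280 with polyU, 138 and 141 with PNPi+dG/rG, 998 and 1033 with the combination, and 1650 and 1696 with R848. No neighbouring groups overlapped in this order, but vehicle and PNPi+dG/rG differed little (0.10 ± 0.04, adjusted p = 0.498). The rises were 2.20-fold with polyU (log2 change 1.14 ± 0.04, adjusted p = 3.08e-11), 7.80-fold with the combination (2.96 ± 0.04, adjusted p = 7.13e-17) and 12.9-fold with R848 (3.68 ± 0.04, adjusted p = 1.76e-18). Cytosolic Sod1 fell with R848, from 127 and 129 CPM in vehicle to 66.2 and 72.5, a log2 change of -0.89 ± 0.06 that was -0.29 ± 0.06 with centred libraries, and extracellular Sod3 had 0 reads in 7 libraries and 3.24 and 4.07 CPM with R848.

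Hmox1 and Nqo1 are often used as reporters of NRF2. On the deposited scale Hmox1 passed with polyU, the combination and R848, while Nqo1 passed with no treatment. The difference between these genes was not tested. Hmox1 (ENSMUSG00000005413, chr8:75093621-75100589), the inducible haem oxygenase, had 535 and 572 CPM in vehicle, 629 and 685 with polyU, 552 and 544 with PNPi+dG/rG, 747 and 816 with the combination, and 945 and 958 with R848. Apart from vehicle and PNPi+dG/rG the groups did not overlap, and the log2 changes were 0.25 ± 0.05 with polyU (adjusted p = 0.00117), 0.50 ± 0.05 with the combination (adjusted p = 3.52e-07) and 0.78 ± 0.05 with R848 (adjusted p = 8.1e-10). Nqo1 (ENSMUSG00000003849, chr8:107388225-107403206), the quinone reductase, was scarce, with 6.28 and 4.44 CPM in vehicle, 7.50 and 5.70 with polyU, 5.89 and 6.82 with PNPi+dG/rG, 5.10 and 6.47 with the combination, and 5.52 and 6.06 with R848. These values rest on 72 to 255 reads per library and every neighbouring pair of groups overlapped. Its largest log2 change against vehicle was 0.31 ± 0.20 with polyU (adjusted p = 0.242), which did not pass. With centred libraries the R848 value was 0.73 ± 0.20 and passed.

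Guanosine and uridine-rich ssRNA are known to bind different sites of TLR7, and setting the combination against polyU shows what PNPi+dG/rG added to the ssRNA. Compared with polyU alone, the combination called Slc7a11, Sod2 and Gsr higher, 3 of 10 members, beside 5.29% of all genes called higher and 10.2% lower. The members' median log2 change was 0.58, with -0.24 over all genes. Slc7a11 rose 21.3-fold (4.41 ± 0.09, adjusted p = 7.67e-13), Sod2 3.55-fold (1.83 ± 0.04, adjusted p = 2.31e-14) and Gsr 2.09-fold (1.07 ± 0.05, adjusted p = 9.2e-11). Smaller rises were measured for Txnrd1 (0.93 ± 0.04), Srxn1 (0.77 ± 0.04), Prdx1 (0.40 ± 0.04), Gclm (0.35 ± 0.05) and Hmox1 (0.25 ± 0.05), each with an adjusted p of 0.000515 or less. Centring brought Txnrd1 to 1.18 ± 0.04 and Srxn1 to 1.02 ± 0.04, both calls. Gclc fell by 0.20 ± 0.05 on the log2 scale (adjusted p = 0.00365), and centring moved it to 0.05 ± 0.05.

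The interaction asks whether PNPi+dG/rG did more in the presence of polyU than in its absence. It was called for Slc7a11 (3.94 ± 0.13, adjusted p = 1.58e-10) and Sod2 (1.73 ± 0.06, adjusted p = 8.03e-12), 2 of 10 members, beside 4.55% of all genes in this direction and 8.87% in the other. On the linear scale the effect of PNPi+dG/rG on Slc7a11 was 15.3-fold greater with polyU, and that on Sod2 3.31-fold greater. At any size the interaction passed for 7 members in this direction and 1 in the other, beside 11.8% and 38.9% of all genes. Below 2-fold these were Gsr (0.85 ± 0.08), Txnrd1 (0.74 ± 0.06), Srxn1 (0.48 ± 0.06), Prdx1 (0.36 ± 0.06) and Hmox1 (0.26 ± 0.07, adjusted p = 0.00669), and in the other direction Gclc (-0.23 ± 0.07, adjusted p = 0.0199). Centring brought Gsr and Txnrd1 past 2-fold and turned Gclc to 0.06 ± 0.07. For Gclm the value was 0.18 ± 0.07 (adjusted p = 0.0542) as deposited and 0.46 ± 0.07, past the threshold, when centred, and for Nqo1 -0.45 ± 0.28 (adjusted p = 0.193).

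**Figure D3:**
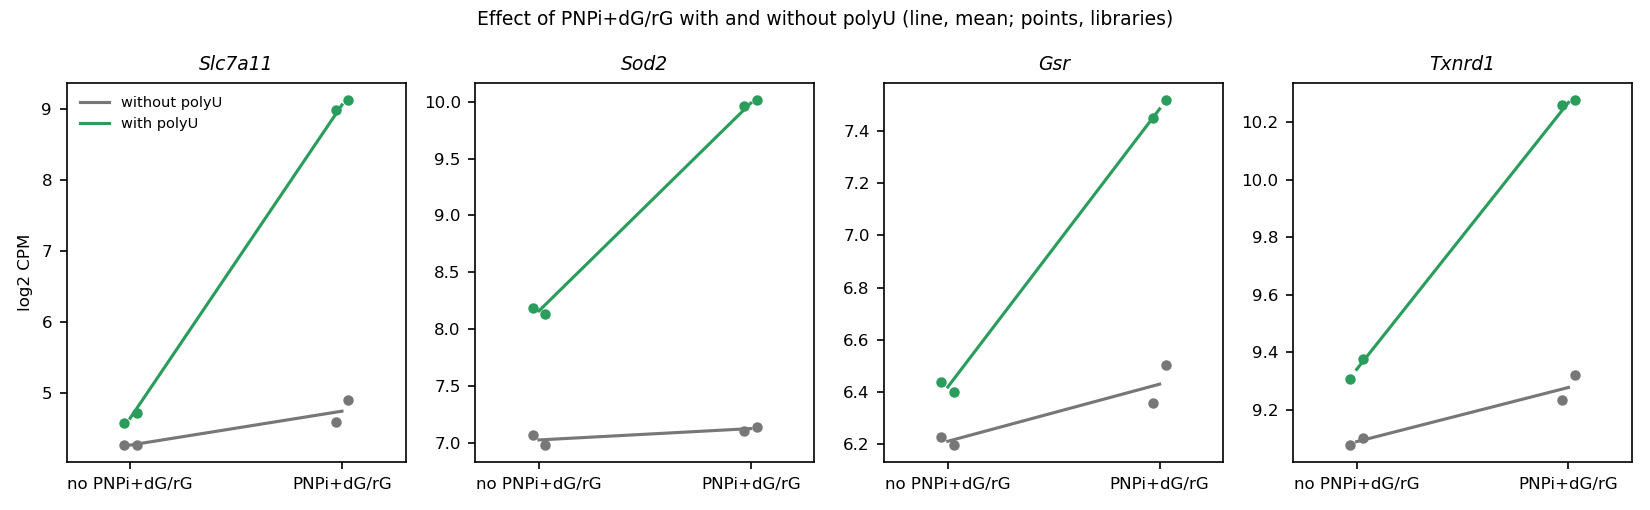
Log2 CPM (y axis, a separate scale for each gene) of Slc7a11, Sod2, Gsr and Txnrd1 without and with PNPi+dG/rG (x axis), in the absence (grey) or presence (green) of polyU, with points for libraries and lines through the means of 2 libraries. The green lines are steeper than the grey ones, with interactions of 3.94, 1.73, 0.85 and 0.74 on the log2 scale.

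Between the combination and R848, 4 members were lower and 2 higher with the combination, and 4 did not pass, where 16.9% of all genes passed lower and 53.9% higher. The ligands were given at single doses that cannot be matched, so these are values side by side for the treatments as used. Slc7a11 was 3.09-fold lower with the combination than with R848 (log2 difference -1.63 ± 0.09, adjusted p = 7.52e-09) and Gsr 2.21-fold lower (-1.15 ± 0.05, adjusted p = 3.88e-11), which made 2 of 10 members called lower, beside 3.86% of all genes lower and 16.9% higher. Sod2 (-0.72 ± 0.04) and Hmox1 (-0.29 ± 0.05) were also lower, and centring put them at -1.10 ± 0.04 and -0.67 ± 0.05, which made Sod2 the third member called lower. Srxn1 (0.81 ± 0.04, adjusted p = 1.36e-10) and Prdx1 (0.73 ± 0.04, adjusted p = 2.63e-10), the sulfiredoxin and its peroxiredoxin, were the members that were higher with the combination, by 1.75- and 1.66-fold. Both stayed higher with centred libraries, at 0.43 ± 0.04 and 0.35 ± 0.04. Txnrd1, Gclm, Gclc and Nqo1 had differences of 0.05 ± 0.04, 0.04 ± 0.05, 0.03 ± 0.05 and -0.01 ± 0.20 that did not pass, and centring put the first 3 at -0.33, -0.34 and -0.35, all past the threshold. The members' median difference was 0.01, with 0.31 over all genes.

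**Figure D4:**
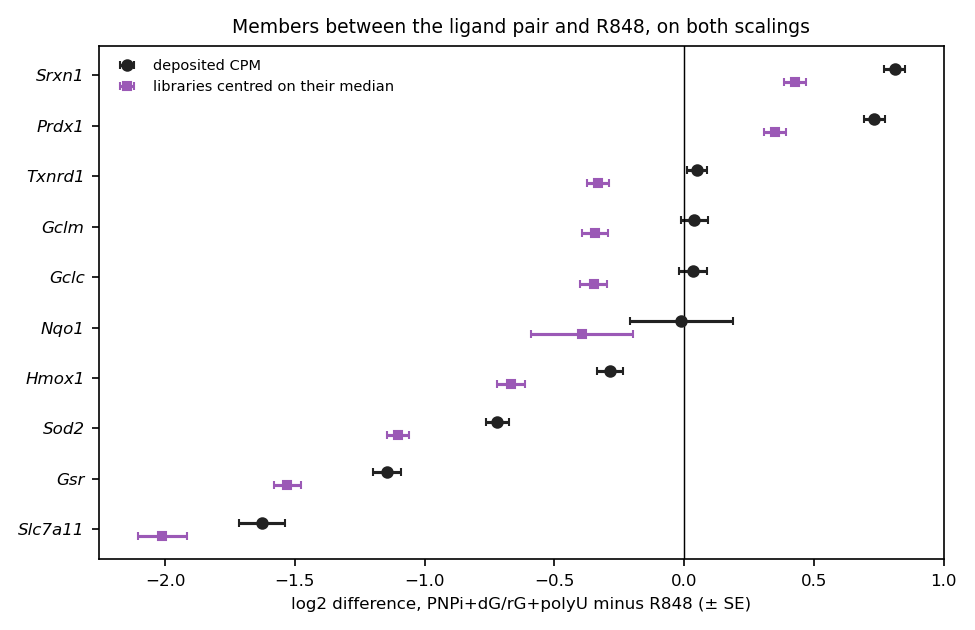
Log2 difference between the combination and R848 (x axis, ± SE, 2 libraries per group) for the 10 members, from the deposited CPM (circles) and with each library centred on its median gene (squares). On both scalings Srxn1 and Prdx1 lie right of 0 and Slc7a11, Gsr, Sod2 and Hmox1 left of it, while Txnrd1, Gclm and Gclc change side.

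The genes around the members were taken from lists of 87 redox genes, of which 82 were tested. PolyU called 2 of these higher (2.44%, beside 3.21% of all genes tested) and 0 lower (beside 0.776%). PNPi+dG/rG called 0 in either direction by limma, beside 0.0668% of all genes higher and 0.00835% lower. With PNPi+dG/rG 0 passed at any size, and 15 had an unadjusted p under 0.05, beside 1076 of all 11978 genes. With the combination 8 were called higher (9.76%, beside 8.12% of all genes tested) and 2 lower (2.44%, beside 14.3%). With R848, 12 were called higher (14.6%, beside 8.89%) and 14 lower (17.1%, beside 30.3%). The same shares of all genes are the background for the calls in each list below. Their median log2 change was 0.01 with the combination and -0.36 with R848, below the members' medians and above those of all genes. When libraries were centred, 10 were called higher and 1 lower with the combination, and 21 higher and 7 lower with R848. Of all 11978 genes, 1192 were then called higher and 1245 lower with the combination, and 1792 and 2107 with R848. The balance with R848 thus depended on the scale. Of the calls on the deposited scale 9 of 10 and 19 of 26 held.

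Among NRF2 and its regulators, 11 genes all tested, 3 were called higher with the combination, beside 8.12% of all genes, and the same 3 with R848, beside 8.89%, namely Nfe2l2, Sqstm1 and Maff. With centred libraries 3 were called higher with the combination and 5 with R848, where 1192 and 1792 of all 11978 genes were. Nfe2l2 had 270 and 271 CPM in vehicle, 335 and 334 with polyU, 261 and 287 with PNPi+dG/rG, 742 and 698 with the combination, and 654 and 656 with R848, and its log2 change was 1.41 ± 0.05 (adjusted p = 2.84e-13) and 1.28 ± 0.05 (adjusted p = 4.87e-13) in the last 2. Between the combination and R848 the direction of Nfe2l2 depended on the scale, at 0.14 ± 0.05 (adjusted p = 0.0163) as deposited and -0.25 ± 0.05 (adjusted p = 0.00027) with centred libraries. Sqstm1, whose product p62 is a receptor of selective autophagy that binds KEAP1, rose by 2.03 ± 0.06 and 1.61 ± 0.06, and Maff, a small MAF partner, by 2.53 ± 0.09 and 3.42 ± 0.09. The repressor Keap1 rose by 0.27 ± 0.05 (adjusted p = 0.000331) with the combination and fell by 0.51 ± 0.05 on the log2 scale with R848, where centring left 0.09 ± 0.05. Bach1, which competes with NRF2 at AREs, rose by 0.18 ± 0.07 and 0.53 ± 0.07, the latter 1.13 ± 0.06 and a call when centred, and Mafk by 0.49 ± 0.08 with the combination but not with R848, where it was -0.55 ± 0.08 as deposited and 0.05 ± 0.08 centred.

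Of 8 superoxide and nitric oxide producers, 2 were called higher with the combination, beside 8.12% of all genes, and 4 with R848, beside 8.89%, and none lower. Centring gave 3 and 6 called higher. At any size 7 passed higher and 1 lower with the combination and 6 higher and 2 lower with R848, where 22.2%, 46.7%, 19.2% and 62.9% of all genes did. Nos2, the inducible NO synthase, had 0.449 and 0.731 CPM in vehicle, 2.95 and 4.77 with polyU, 0.469 and 0.455 with PNPi+dG/rG, 78.0 and 93.1 with the combination, and 288 and 321 with R848. Cybb, the catalytic subunit of the phagocyte NADPH oxidase, rose by 1.56 ± 0.04 and 2.13 ± 0.04, and the oxidase organiser Ncf1 by 0.79 ± 0.04 and 1.13 ± 0.04. Rac2, a GTPase the oxidase needs, rose by 0.66 ± 0.04 and 1.11 ± 0.04. The 2 that passed lower with R848 were the xanthine oxidoreductase gene Xdh (-0.95 ± 0.05, adjusted p = 5.51e-11), which also passed lower with the combination (-0.32 ± 0.05), and Cyba (-0.16 ± 0.06, adjusted p = 0.0409), a membrane subunit of the oxidase. With centred libraries Xdh still passed lower with R848 (-0.36 ± 0.05) but not with the combination (-0.11 ± 0.05), and Cyba turned to a rise of 0.44 ± 0.07 with R848.

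In the thioredoxin and peroxiredoxin list, 10 genes all tested, Prdx5 was called higher in both groups (1.20 ± 0.06 and 1.95 ± 0.06), Txnip, an inhibitor of thioredoxin, lower with the combination (-1.07 ± 0.06), and Txnrd3 (-1.85 ± 0.15) and the endoplasmic reticulum peroxiredoxin Prdx4 (-1.20 ± 0.07) lower with R848. The calls on Txnip and Prdx4 were lost when libraries were centred, at -0.85 and -0.61. Of 16 glutathione enzymes 13 were tested, and Ggct was called higher with the combination (1.34 ± 0.19). With R848, Ggct (1.48 ± 0.19) and the glutathione conjugate exporter Abcc1 (1.31 ± 0.04) were called higher and the glutathione peroxidase Gpx1 (-1.46 ± 0.04) and Mgst3 (-1.54 ± 0.07) lower, the last 2 not with centred libraries. The 7 NADPH supply genes had no call in any comparison, and 5 of them fell with R848 at any size, where 62.9% of all genes did, with a list median of -0.52 that centring moved to 0.07. None of the 3 genes for other dismutases and catalase was called in any comparison, although Sod3 had 3.24 and 4.07 CPM with R848 after 0 reads in vehicle, which is at least 21.7-fold above 3 reads per library and did not pass (adjusted p = 0.147).

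Of 11 other NRF2 targets 10 were tested, and at any size 4 passed higher and 6 lower with the combination, beside 22.2% and 46.7% of all genes, and 2 higher and 7 lower with R848, beside 19.2% and 62.9%. The list medians were -0.33 and -0.80, beside -0.22 and -0.50 over all genes. Trim16 was called lower with the combination (-1.45 ± 0.17), and Trim16 (-1.66 ± 0.17) and the carbonyl reductase Cbr1 (-1.32 ± 0.11) with R848. The Cbr1 call was lost with centred libraries. Ptgr1 was at 38.6 and 36.4 CPM in vehicle, 42.0 and 43.9 with the combination and 20.2 and 20.3 with R848, and was called between the last 2 (1.08 ± 0.07, adjusted p = 4.08e-09), though not after centring. Of 6 genes of haem breakdown and iron storage, none was called with the combination as deposited. The constitutive haem oxygenase Hmox2 (-1.22 ± 0.06) and biliverdin reductase Blvra (-1.20 ± 0.06) were called lower with R848 and not after centring. Centring gave 1 gene of this list called higher with the combination and 1 with R848. The iron exporter Slc40a1 had a log2 change of -0.67 ± 0.11 with R848 as deposited and of -0.07 ± 0.11, which did not pass, with centred libraries. Both metallothioneins, cysteine-rich metal binders, were tested, and Mt2 was called higher with R848 (3.36 ± 0.11) where Mt1 rose by 0.75 ± 0.07. The Mt1 change became 1.34 ± 0.07, also a call, when libraries were centred.

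The ATF4 pathway, which also drives Slc7a11, was taken as a list of 13 genes, Slc3a2 included, and 12 were tested. With R848, 1 was called higher and 6 lower, beside 8.89% and 30.3% of all genes, and with the combination 1 higher and 0 lower, beside 8.12% and 14.3%. Atf4 itself had 188 and 201 CPM in vehicle, 175 and 199 with the combination and 191 and 195 with R848. The one called higher was Ddit4, an inhibitor of mTORC1 signalling, at 0.337 and 0.506 CPM in vehicle and 47.3 and 51.7 with R848. Called lower with R848 were Atf3 (-2.02 ± 0.07), the serine synthesis gene Psat1 (-1.83 ± 0.06) and Trib3 (-1.74 ± 0.16), with Chac1, Phgdh and Shmt2. At any size, 8 of the 12 genes fell with R848, where 62.9% of all genes did, and 1 rose, where 19.2% did. With the combination 7 fell and 3 rose, beside 46.7% and 22.2%. After centring 5 were called lower with R848.

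**Figure D5:**
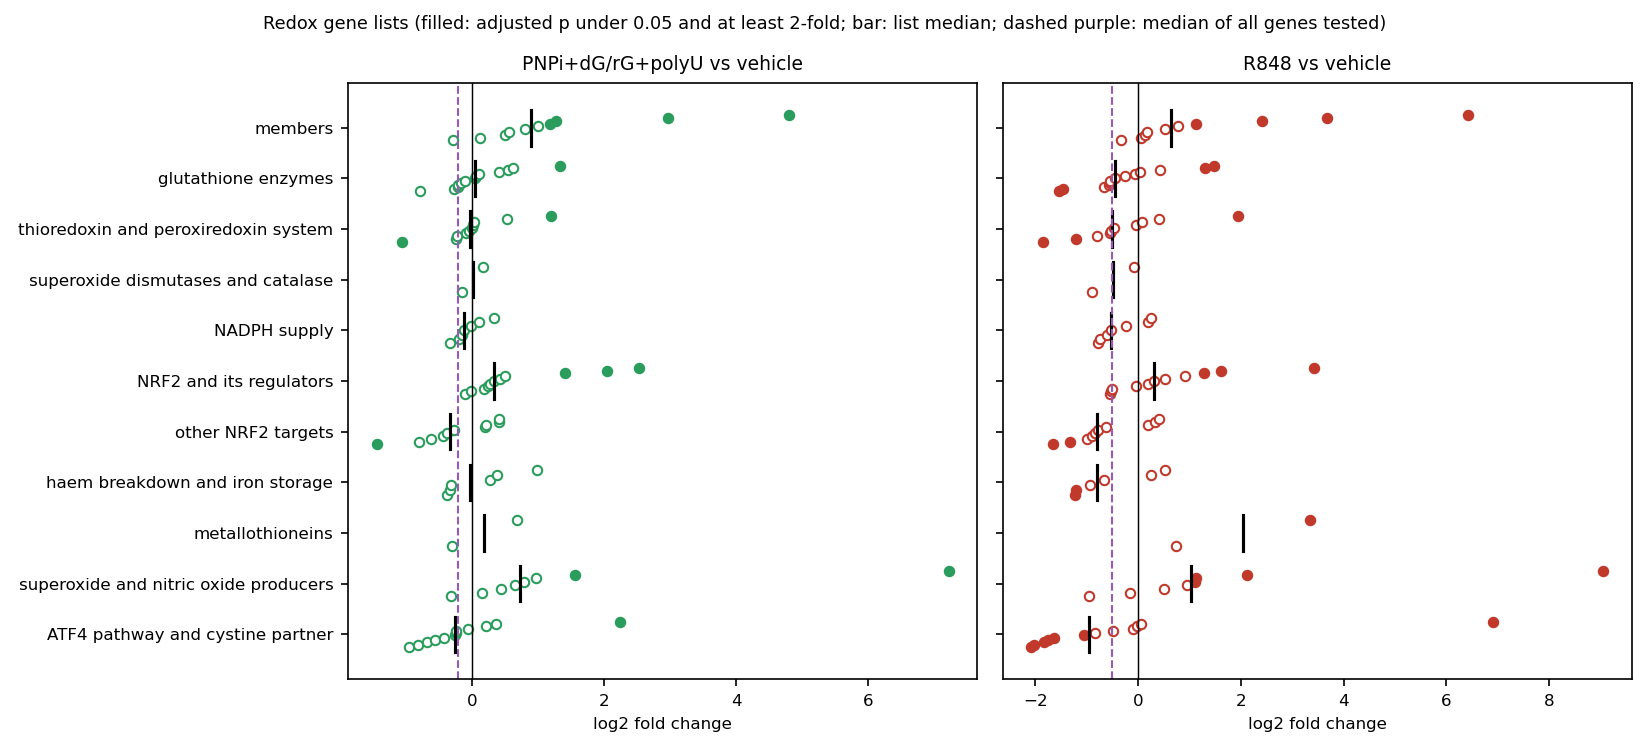
Log2 fold change against vehicle (x axis) for each tested gene of the redox lists (rows), with the combination on the left and R848 on the right. Filled points passed an adjusted p under 0.05 at 2-fold or more, the black bar is the list median and the dashed line the median of all genes tested; Sod3, at 0 reads in vehicle, is left out. The members' medians (0.90 and 0.65) lie right of those of the glutathione and thioredoxin lists. With R848 the medians of the superoxide and nitric oxide producers (1.03) and of the metallothioneins (2.05) lie further right. The far points are Nos2 (7.22 and 9.05), Slc7a11 and Ddit4.

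Likeness of pattern was taken as the Euclidean distance over all 10 libraries between values of log2(CPM + 1), each gene less its vehicle mean. The genes closest to Slc7a11 were Saa3, Fscn1, Tarm1, Itgb8 and Adora2a, among 8458 genes with a mean over the 10 libraries of at least 10 CPM. Saa3, an acute-phase serum amyloid, had mean CPM values of 60.6 in vehicle, 66.5 with polyU, 65.2 with PNPi+dG/rG, 1616 with the combination and 3658 with R848, at a distance of 1.01. For Sod2 the closest were Pstpip2, Tfec, Nfkb2, Adam19 and Irak3, at distances of 0.41 to 0.60. Nfkb2, which encodes the NF-κB subunit p100, had means of 80.8, 216, 103, 610 and 1020 CPM in the same order.

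Of the 15 macrophage markers, 2 were called higher with R848 (Cd14 and Spi1) and 3 lower (Cx3cr1, Mertk and Fcgr1), beside 8.89% and 30.3% of all genes, and 9 passed lower at any size, where 62.9% of all genes did. With the combination Cd14 was called higher and Cx3cr1 and Mertk lower, beside 8.12% and 14.3%. Markers of other cell types were checked beside the R848 values. The 10 fibroblast markers summed to 0.673 to 1.52 CPM in the vehicle, polyU and PNPi+dG/rG libraries, 5.45 and 6.26 with the combination, and 145 and 153 with R848. Of them 7 were tested and 6 were called higher with R848, beside 8.89% of all genes, and 4 with the combination, beside 8.12%. Markers this low elsewhere could pass the filter through the libraries where they were high, so these calls are not independent of it. The most abundant was Col1a1, at 51.6 and 58.3 CPM with R848, while Lum and Thy1 had 3 or fewer reads in every library. The part of these transcripts in the members' R848 levels was not tested. The 10 neutrophil markers summed to 16.1 to 23.2 CPM outside R848 and to 63.9 and 65.4 with it, Mmp8 being the most abundant at 40.9 and 40.2 with R848. Of the 5 neutrophil markers tested, Mmp8, S100a8 and Camp were called higher with R848 and Ngp and S100a9 lower, beside 8.89% and 30.3% of all genes. Ngp went from 20 and 18 reads in vehicle to 0 in both R848 libraries, while Ly6g was at 0 reads everywhere and Elane at 3 or fewer. The 10 endothelial markers summed to 246 and 240 CPM in vehicle, to 144 and 144 with the combination and to 64.8 and 70.2 with R848, with Cldn5, Emcn and Tek at 3 or fewer reads. Kdr was the most abundant, at 156 and 146 CPM in vehicle and 18.5 and 21.1 with R848, and was called lower, while Pecam1 was called higher, from 0.337 and 0.0563 CPM in vehicle to 1.06 and 1.07 with R848. The lists for dendritic cells (7 genes), B or T cells (11) and epithelial cells (10) summed to at most 14.4, 10.3 and 0.899 CPM in any library, led by Kit, Cd4 and Cdh1. Kit was the only gene of the dendritic list that was tested, and Cd209a, Flt3, Siglech and Xcr1 had 3 or fewer reads in every library. The dendritic sum is therefore mostly that of Kit. Kit had 13.8 and 14.2 CPM in vehicle, 2.83 and 1.76 with the combination and 0.584 and 0.980 with R848, and was called lower in both, and Cd4 had 6.85 and 8.82 CPM in vehicle, 5.24 and 5.14 with the combination and 0.584 and 1.10 with R848, and was called lower with R848. Among these lists Cd209a, Cd3e and Krt8 had 0 reads throughout. In bulk RNA, fewer cells that express a gene and less of its RNA per cell cannot be told apart.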

How the data were processed

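Single reads of 50 bases from stranded mRNA libraries were mapped with STAR to GRCm38 and counted per gene with Ensembl release 97, per the paper's methods and the submitters' processing notes. The values the authors deposited are CPM, in which gene counts of every library are scaled to an equal sum, with an offset of 0.0001. CPM carries no correction for a few induced genes taking up a larger share of a library. How reads shared by several genes were counted is not given in the sources used here. Depth was worked out from the step between low values, and no column was left unmapped (0).

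Log2 of the deposited CPM was fitted with limma 3.58.1 (R 4.3.3, statmod 1.5.0) to all 5 groups in 1 model, eBayes with trend and robust settings, on genes reaching 1 CPM in 2 or more libraries, and p-values were Benjamini-Hochberg adjusted over all genes tested in each of 7 comparisons. A fold change is the difference between group means of log2 CPM, and the interaction subtracts the PNPi+dG/rG effect seen without polyU from that seen with it. The script was tested on simulated data. Alternatives were pseudocounts of 0.1 and 1, no filter or a filter on the mean, centred libraries, eBayes without trend or robust settings (plain eBayes), fits restricted to the compared groups, the replicate block and leaving out each library. A planned test on counts was not run, as the deposited CPM, with their offset, did not pass a check for whole reads.

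The members and the lists were chosen with earlier results of these data known. All members are named. From each other list, up to 4 genes are named that were called in some comparison with a group mean of at least 10 CPM, with Nfe2l2, Keap1, Bach1 and Slc3a2 always named, and the 5 genes nearest in pattern to each of the 2 members of widest range. Ggct, Sod1, Sod3, Xdh, Cyba, Atf4, Chac1, Phgdh, Shmt2 and the marker genes fall outside this rule and were chosen with their values in view. Positions of genes are from GENCODE release M21, where 55394 identifiers have a symbol.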

Additional observations from a re-analysis of the deposited data

Results flagged for a closer look

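For 8 of the 10 members the effect of PNPi+dG/rG differed between cells with and without polyU, by limma's test of the interaction on the log2 scale. Of all genes tested, 11.8% passed this test with a greater effect with polyU and 38.9% in the other direction. The difference was 3.94 for Slc7a11, 1.73 for Sod2, 0.85 for Gsr, 0.74 for Txnrd1, 0.48 for Srxn1, 0.36 for Prdx1 and 0.26 for Hmox1, each a greater effect with polyU. For Gclc it was -0.23 on the deposited scale and 0.06 with centred libraries. Groups of 2 libraries are too small to single out a library within a group.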

How the results depend on the processing

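Of 70 member comparisons 51 passed at an adjusted p under 0.05 and 16 were called, and no comparison that passed changed direction outside the centring of libraries. Centring on the median gene turned Gclc to -0.00778 with PNPi+dG/rG, 0.27 with R848, 0.0523 against polyU, -0.35 against R848 and 0.0601 in the interaction, Nqo1 to 0.0683 against polyU, and Gclm and Txnrd1 to -0.34 and -0.33 between the combination and R848. It gave 5 members called higher against polyU, in place of 3, and 4 in the interaction, in place of 2. Of all 11978 genes, 829 were then called higher and 755 lower against polyU, in place of 634 and 1219. In the interaction 751 were called higher and 567 lower, in place of 545 and 1062. Leaving out 1 library at a time ranged over 0 for Hmox1 (-0.0612 to 0.0357) and Gclc (-0.00302 to 0.0523) with PNPi+dG/rG, and for Nqo1 with the combination (-0.13 to 0.37), with R848 (-0.12 to 0.38), against polyU (-0.39 to 0.0121) and against R848 (-0.18 to 0.16). The PNPi+dG/rG passes of Slc7a11 and Txnrd1 were also lost with centred libraries, with plain eBayes and in a fit of only the groups compared, and that of Srxn1 with plain eBayes. Hmox1 lost the interaction with plain eBayes (0.26 ± 0.10), and Gclc with no filter on low values or without vehicle replicate 2 or PNPi+dG/rG replicate 1, while Gclm gained it with either pseudocount.

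Over all genes, PNPi+dG/rG called 9, and 1 with a pseudocount of 0.1, 0 with a pseudocount of 1 (1187 at an unadjusted p under 0.05 by limma), 16 with no filter, 4 with a filter on the mean, 4 in a fit of only the groups compared, and 2 to 29 with 1 library left out. With polyU 478 genes were called, and 303 with a pseudocount of 1. With the replicate block, all 70 member comparisons kept direction and side of the threshold, and the combination called 2679 genes in place of 2685. Same-numbered libraries of different groups had deviations correlated by -0.29 to 0.11 (median -0.02). With 2 libraries per group this cannot decide whether the replicate numbers mark a shared origin. A test on counts was not run. Among the members Nqo1 rested on the fewest reads, 72 to 255 per library, and what depth alone limits was not tested.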
